A study of Mus musculus with 23 samples.

Results

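The windows described here are the CpG-dense stretches of the mouse autosomes in which 100 CpG positions fitted into less than 1 kb. They were taken from a deposited tiling of chromosomes 1 to 19 into windows of 100 CpGs by a rule on length alone, under 1000 bp from start to end, so that no methylation value entered the choice. At embryonic day 7.5 (E7.5) 16681 of 384346 autosomal windows met the rule (4.34% of windows and 0.399% of the covered bases), and at E6.5 13953 of 320494 windows of a separate tiling did. The windows had a median length of 532 bp at E7.5, the shortest being 199 bp, a median GC content of 67.0% and a median observed-to-expected CpG ratio of 0.842. The reference sequence held a median of 49 CpG dinucleotides per E7.5 window, with a range of 4 to 100, so a few windows kept by length are not CpG-dense in the reference. How the 100 positions of a window were counted is not given in the sources used here. Of the E7.5 windows, 9811 held an annotated transcript start, 4290 lay in an exon without a start, 1384 lay in an intron and 1196 were intergenic. In 355 windows at least 50% of the bases were masked as repeats in the reference.

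Methylation was measured by post-bisulphite adaptor tagging, a bisulphite sequencing method for few cells, in 23 libraries of epiblast and extra-embryonic ectoderm (ExE) from reciprocal matings of C57BL6/Babr (B6) and CAST/Ei (CAST) mice, with the mother named first. At E6.5 there were 3 B6/CAST and 3 CAST/B6 epiblast libraries, 2 libraries of ExE from each cross, and 2 epiblast and 3 ExE libraries of matDKO/CAST embryos, each pooled from 4 epiblasts or 8 ExE and made from the MNase-digested input of a chromatin experiment. Mothers of matDKO/CAST embryos were Dnmt3a floxed/floxed, Dnmt3b floxed/floxed B6/129 females with Zp3-driven Cre, which acts in growing oocytes, and their embryos were Dnmt3a -/+, Dnmt3b -/+ with the intact copies from the CAST father. These embryos therefore differed from B6/CAST in the mother's strain and in their own gene dose as well as in oocyte methylation. At E7.5 there were 2 libraries for each tissue and cross, all wild type and each from 1 embryo. The labels do not give the sex or litter of the embryos, and p-values measure the spread between these libraries. The number of reads behind a value is unknown, since the tables hold percentages without coverage.

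CpG islands are GC-rich stretches that cover many promoters, and most of them stay free of DNA methylation while the CpG-poor genome around them is methylated. The epiblast gives rise to the embryo and gains methylation across its genome after implantation, whereas the ExE, a trophoblast tissue that contributes to the placenta, keeps a lower genomic level. Germline differentially methylated regions (gDMRs), which control imprinted genes, are CpG-rich sequences that are methylated on the allele of 1 parent.

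Stretches of 300 bp from 5 windows show what such sequence looks like at the extremes and at the contrasts described below. They were read from the RefSeq sequence of GRCm38, plus strand, in lower case with each CpG in capitals. The first is from the window at Gt(ROSA)26Sor, a ubiquitously active locus, which was among the least methylated windows, and holds 36 CpGs. The second is from a coding exon of Zfhx3, a homeobox and zinc finger transcription factor, which was the most methylated window, and holds 22. Dact1, which encodes a Dishevelled-binding regulator of Wnt signalling, represents windows that were lower in ExE and holds 34. Sohlh2, a germ cell transcription factor, has a methylated promoter window and holds 19. The last, from the intron of Kcnq1 that holds the imprinting control element of the cluster, holds 24.
Gt(ROSA)26Sor, chr6:113076660-113076959: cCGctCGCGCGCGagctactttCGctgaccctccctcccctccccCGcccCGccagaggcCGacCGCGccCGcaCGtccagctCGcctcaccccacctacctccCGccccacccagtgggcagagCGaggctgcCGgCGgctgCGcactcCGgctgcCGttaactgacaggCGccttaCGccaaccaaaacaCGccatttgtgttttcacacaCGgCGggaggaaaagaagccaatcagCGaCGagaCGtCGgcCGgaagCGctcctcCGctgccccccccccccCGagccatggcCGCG
Zfhx3, chr8:108950131-108950430: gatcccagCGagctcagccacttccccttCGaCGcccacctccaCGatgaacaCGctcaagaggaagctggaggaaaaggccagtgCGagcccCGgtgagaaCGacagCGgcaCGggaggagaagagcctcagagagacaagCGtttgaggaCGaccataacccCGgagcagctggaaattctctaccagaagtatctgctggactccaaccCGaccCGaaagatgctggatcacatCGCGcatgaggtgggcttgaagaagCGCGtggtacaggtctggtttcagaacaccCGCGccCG
Dact1, chr12:71318277-71318576: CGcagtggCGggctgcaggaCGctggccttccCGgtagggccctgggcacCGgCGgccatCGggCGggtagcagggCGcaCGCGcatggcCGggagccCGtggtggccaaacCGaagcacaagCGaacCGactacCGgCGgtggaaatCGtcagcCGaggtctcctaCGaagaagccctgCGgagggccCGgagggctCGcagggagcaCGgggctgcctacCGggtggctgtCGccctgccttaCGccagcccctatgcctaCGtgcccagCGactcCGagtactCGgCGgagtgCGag
Sohlh2, chr3:55182216-55182515: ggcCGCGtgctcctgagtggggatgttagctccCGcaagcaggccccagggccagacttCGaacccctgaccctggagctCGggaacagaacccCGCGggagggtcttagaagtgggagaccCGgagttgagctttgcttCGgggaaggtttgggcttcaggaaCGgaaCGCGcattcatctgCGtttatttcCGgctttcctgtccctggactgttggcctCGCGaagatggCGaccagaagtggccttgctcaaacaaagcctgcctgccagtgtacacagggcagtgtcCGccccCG
Kcnq1, chr7:143295640-143295939: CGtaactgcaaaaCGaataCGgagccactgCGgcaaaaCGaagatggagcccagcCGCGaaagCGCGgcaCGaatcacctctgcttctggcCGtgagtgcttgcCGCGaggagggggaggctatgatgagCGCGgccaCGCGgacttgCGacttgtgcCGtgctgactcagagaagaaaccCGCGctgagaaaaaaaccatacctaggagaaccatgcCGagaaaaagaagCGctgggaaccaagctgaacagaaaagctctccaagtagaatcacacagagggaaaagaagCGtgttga

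The dense windows were nearly free of methylation in every library, in both tissues and at both days. Over the 16601 windows with a value in all E7.5 libraries, the mean level was 5.38% and 5.32% in the B6/CAST epiblasts and 5.54% and 5.67% in the CAST/B6 epiblasts. In ExE it was 5.59% and 5.36% in B6/CAST and 5.90% and 6.04% in CAST/B6. The tissues overlapped in this mean, whereas the other autosomal windows lay between 74.7% and 78.8% in the epiblast and between 58.3% and 61.6% in ExE. At E6.5 only 5325 windows (38.2%) had a value in all 15 libraries. Over these the wild-type epiblast ranged from 3.93% to 5.02%, with a mean of 4.41% ± 0.170 for B6/CAST and 4.63% ± 0.609 for CAST/B6 (SD, n = 3 each). ExE was at 5.33% ± 0.103 and 5.64% ± 0.309 (SD, n = 2 each), and its lowest library, at 5.26%, was above the highest epiblast library. The matDKO/CAST libraries had the lowest means, at 3.48% and 3.13% in the epiblast and 3.75%, 3.89% and 3.91% in ExE. The median SD between replicates of 1 window was 0.487 to 0.751 percentage points at E7.5 and 1.02 to 1.56 points at E6.5.

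As a check of the tissue labels, the window of 2359 bp at the start of Elf5, a trophoblast regulator that is methylated in embryonic cells, stood at 66.9% ± 7.51 (SD, n = 4) in E7.5 epiblast and 35.3% ± 10.6 (SD, n = 4) in ExE. The window at the start of Pou5f1, a pluripotency gene that is silenced in trophoblast, stood at 9.46% ± 2.30 and 26.9% ± 1.23 (SD, n = 4 each). Neither pair of tissues overlapped. At Elf5 this sets little apart, since 73.8% of all autosomal windows had every ExE library below every epiblast library at E7.5. The direction at the start of Pou5f1 was the rarer one, found without overlap in 1.35% of all autosomal windows. A window further along Pou5f1 that also holds an annotated start went the other way, at 71.7% ± 2.64 and 48.8% ± 3.69 (SD, n = 4 each), and Nanog stood at 42.9% ± 3.75 and 56.4% ± 4.58.

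Longer windows, in which the CpGs are less dense, had higher methylation. At E7.5 the epiblast mean was 1.27% ± 0.192 (SD, n = 4) in the 855 windows under 300 bp, 2.88% ± 0.131 at 500 to 600 bp and 15.7% ± 0.216 at 900 to 1000 bp. Outside the rule it was 17.8% at 1000 to 1100 bp and 76.6% at 2000 to 5000 bp, so that the limit of 1 kb falls within a gradual rise. The 246 windows within 20 bp below the limit had a mean of 16.4% over all E7.5 libraries and the 280 windows of the 20 bp from the limit upwards a mean of 18.2%. At E6.5 the corresponding values were 12.1% in 205 windows and 12.5% in 202 windows. The 5 shortest E7.5 windows lay at Tcfl5, Mark1, Ski, Fam169a and Grsf1, and their epiblast means ran from 0.206% (Fam169a) to 2.53% (Tcfl5). Tcfl5, which encodes a basic helix-loop-helix factor, was the 1 of these 5 that passed the test between tissues, at 1.75%, 2.0%, 0.893% and 5.47% in the epiblast and 9.29%, 7.33%, 5.76% and 7.58% in ExE (adjusted p = 0.000319, limma).

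**Figure D1:**
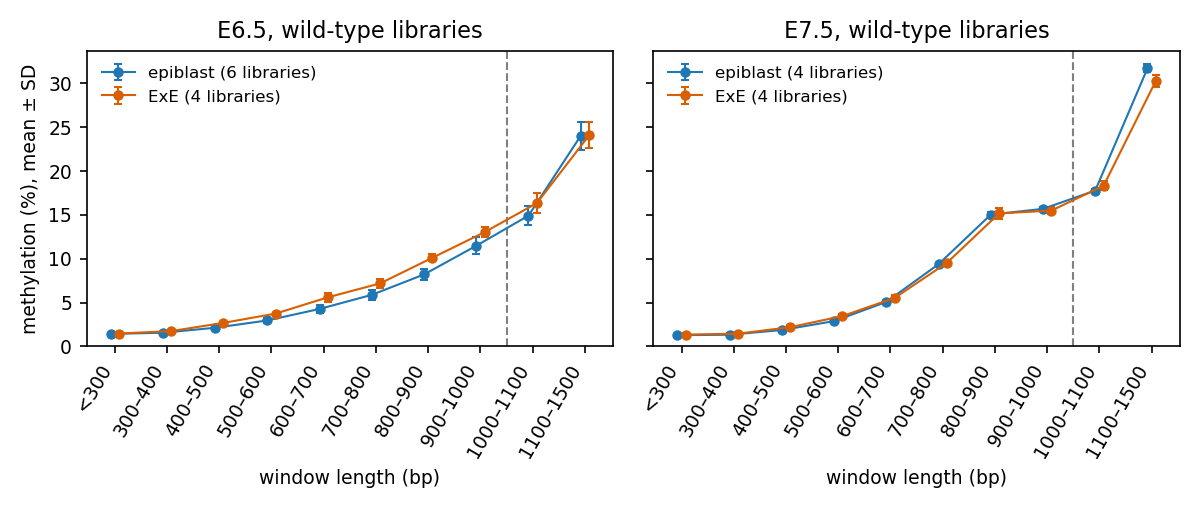
Mean methylation (%) of windows by length (bp) in wild-type epiblast and ExE libraries at E6.5 and E7.5. Points are means over libraries, bars are SD over libraries, and the dashed line marks 1000 bp; at E7.5 the epiblast rises from 1.27% in the shortest windows to 15.7% just under the line.

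Methylated windows were a small set with a different make-up. Of the 16681 E7.5 windows, 6043 had a mean below 1% over all libraries, 7587 lay at 1 to 5%, 2118 at 5 to 20%, 344 at 20 to 50%, 266 at 50 to 80% and 323 at 80% or more. Windows with a transcript start reached 20% in 1.30% of cases, those in exons in 8.97%, those in introns in 11.1% and intergenic ones in 22.2%. Of the 355 repeat-masked windows 98.3% reached 20%, and they made up 50.8% of the windows at 50 to 80% and 63.5% of those at 80% or more. With rising level the median length went from 436 bp below 1% to 851 bp at 80% or more, and the median CpG ratio fell from 0.916 to 0.629. The 323 most methylated windows comprised 158 intergenic, 99 exonic and 52 intronic windows and 14 with a start. At E6.5, where 32 windows were repeat-masked, 57 windows were at 80% or more.

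The most methylated windows with a value in all E7.5 libraries lay inside exons. Zfhx3 (chr8:108949531-108950464) stood at 97.6%, 94.4%, 97.2% and 97.0% in the epiblast libraries and at 94.6%, 89.4%, 93.1% and 95.3% in ExE. Exon windows of Srrm2, a splicing factor, Trim71, an RNA-binding ubiquitin ligase of early development, Plec, a cytoskeletal linker, Bend3, Plxnb2, a semaphorin receptor, Scaf1 and Dync1h1, the dynein heavy chain, had epiblast means of 93.9% to 96.0% and ExE means of 90.6% to 92.2%. Of these 8 windows Plec passed the test between tissues (difference of ExE minus epiblast -4.27 points, adjusted p = 0.0452, limma), and the other 7 did not. At the other end, the Gt(ROSA)26Sor window (chr6:113076619-113077096) was at 0% in 7 libraries and at 0.758% in 1 ExE library of CAST/B6. An intron of Kdm4c, a histone demethylase gene, was at 0% in all 4 epiblast libraries and at most 0.278% in ExE, and the start of Btf3l4 did not exceed 0.546% in any library.

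At a threshold of 20% in the tissue mean, 795 E7.5 windows were methylated in both tissues, 67 in the epiblast alone and 219 in ExE alone. At 50% the split was 472 in both, 114 in the epiblast alone and 18 in ExE alone, so that the tissue with more windows of its own changed with the threshold. At E6.5, over 7570 windows with a value in all 10 wild-type libraries, 226 reached 20% in both tissues, 35 in the epiblast alone and 156 in ExE alone.

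The comparison of ExE with epiblast asked which dense windows differ between the tissues within the wild-type crosses. At E7.5, 2409 of 16601 windows were higher in ExE, where 1.85% of all autosomal windows were called higher, and 1181 were lower, where 85% of all autosomal windows were called lower (limma, adjusted p under 0.05 over all 383556 windows). In windows under 1 kb, therefore, 14.5% were called higher and 7.11% lower. Whether called or not, 1820 dense windows had every ExE library above every epiblast library, where 1.35% of all autosomal windows did, and 815 had every ExE library below, where 73.8% did. At E6.5, 736 of 7570 windows were higher in ExE, against 1.04% of all autosomal windows, and 122 were lower, against 62.9%. At this day ExE lay wholly above the epiblast in 261 windows, against 0.345% of all autosomal windows, and wholly below it in 33, against 17.1%. The count of lower windows at E6.5 varied with the libraries, from 76 without B6/CAST ExE replicate 1 and 79 without CAST/B6 ExE replicate 2 to 150 without CAST/B6 epiblast replicate 3, and was 72 within B6/CAST and 31 within CAST/B6. When the trend between level and variance was left out of the model, 1587 dense windows in all were called at E7.5 in place of 3590, and 324 in place of 858 at E6.5.

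Windows higher in ExE mostly had low levels in the epiblast. At E7.5 their median level was 2.48% for epiblast and 7.70% for ExE, and their median difference 4.67 points. Of these 2409 windows 1904 were below 5% in the epiblast, 244 reached 20% in ExE, 981 held a transcript start, and 0 were repeat-masked. Windows lower in ExE went from a median of 12.6% to 6.99%, with a median difference of -5.52 points. They included 220 of the 322 tested repeat-masked windows (68.3%) and 391 windows at 50% or more in the epiblast. By mean level over both tissues, 55.0% of the 2116 windows at 5 to 20% were higher in ExE, whereas 78.8% of the 250 windows at 50 to 80% were lower, with a median difference of -20.6 points. Both directions grew more frequent with length, from 4.32% higher and 1.99% lower under 400 bp to 26.1% higher and 20.1% lower at 800 to 1000 bp.

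**Figure D2:**
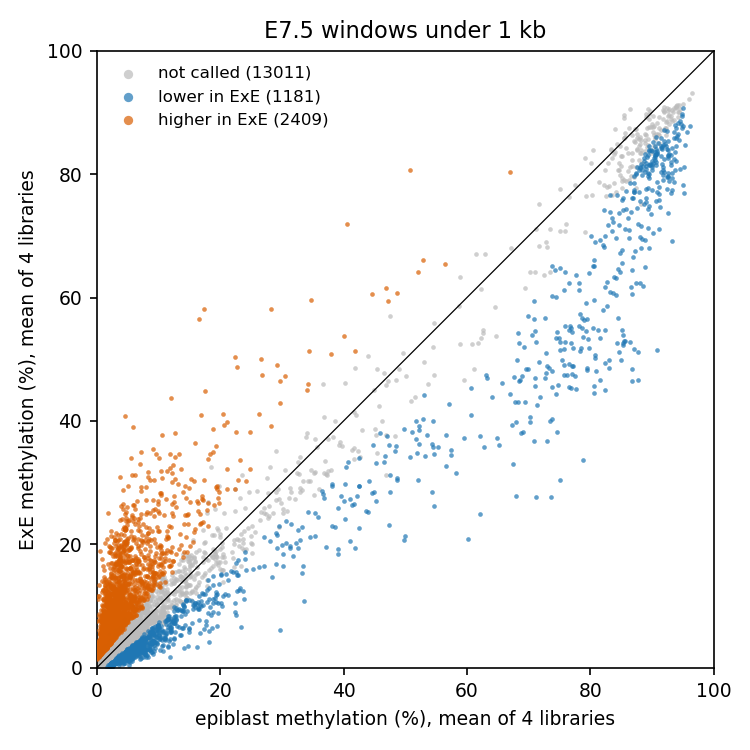
ExE methylation (%) against epiblast methylation (%) at E7.5 for each of the 16601 windows under 1 kb, as means of 4 libraries each; the line marks equal levels. Of the windows, 2409 called higher in ExE lie mostly at low epiblast levels and 1181 called lower spread up to the highest levels.

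The largest rises at E7.5 started from epiblast means between 4.64% (near Gm47646) and 50.7% (Smad6). The window at the start of Mir219a-2, a microRNA gene (chr2:29844997-29845812), was at 11.7% and 16.3% in B6/CAST and 20.1% and 18.3% in CAST/B6 epiblast, and at 50.8%, 59.7%, 57.8% and 58.0% in the ExE libraries. Its tissues lay far apart, with a difference of 40.0 ± 3.23 points (SE, adjusted p = 4.46e-07, limma). A window in an intron of Gm20388 rose from 17.3% ± 5.39 to 58.1% ± 6.16 (SD, n = 4 each). Exon windows of Mon1a, a vesicle trafficking gene (5.93% to 39.0%), Smad6, an inhibitor of BMP signalling (50.7% to 80.8%), Lmtk3 (40.6% to 71.9%) and Fam83h (28.2% to 58.2%) rose as well, as did the start of Gm17244 (a difference of 31.8 points). An intergenic window 28768 bp from Gm47646 went from 4.64% ± 4.04 to 40.8% ± 16.2 (SD, n = 4 each), and its ExE libraries split by cross, at 26.5% and 27.5% in B6/CAST and 57.7% and 51.6% in CAST/B6.

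The largest falls at E7.5 were in exons and introns with epiblast means between 60.2% (Gtsf1) and 90.8% (Gm47648). The Dact1 exon window (chr12:71318277-71318767) was at 81.6%, 72.1%, 70.8% and 70.3% in the epiblast and at 25%, 25.8%, 36.8% and 23.2% in ExE. This was the largest difference in either direction, -46.0 ± 4.51 points (SE, adjusted p = 1.84e-06, limma). An exon window of Bcl11b, a zinc finger transcription factor (chr12:107916153-107916709), fell from 80.9%, 71.1%, 69.3% and 63.6% to 30.9%, 31.6%, 25.6% and 22.5%. Fam50b fell to 30.4% ± 7.69 by 44.6 points, and Prickle1, a planar cell polarity gene, from 86.8% ± 4.45 to 48.5% ± 14.8 (SD, n = 4). Fully repeat-masked windows in introns of Clca3b, Lrmda and Gtsf1 fell to ExE means of 46.7%, 46.4% and 20.8% from 87.8%, 86.8% and 60.2%, and an unmasked intronic window of Gm47648 fell from 90.8% to 51.5%.

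Many promoter windows of developmental regulators were higher in ExE. Of 186 windows at starts of homeobox and other developmental transcription factors, 103 were higher in ExE at E7.5 and 0 were lower, with a median difference of 2.38 points. Over all 9780 start windows tested, 981 were higher (10.0%) and 501 lower (5.12%), with a median difference of 0.0473 points. The window at Tbx4, a T-box gene of the hindlimb (chr11:85889953-85890709), was at 6.87%, 10.7%, 6.55% and 4.41% in the epiblast and at 25.6%, 25.1%, 36.4% and 27.3% in ExE, a difference of 21.4 ± 2.19 points (SE, adjusted p = 2.06e-06, limma). The tissues did not overlap. Dbx1, a homeobox gene of the neural tube, rose from 7.91% to 27.2%, and Meis2, a homeobox cofactor, from 5.76% to 24.7%. No window of this list reached 20% in its mean over both tissues at E7.5. At E6.5, 34 of 103 tested windows of the list were higher and 0 lower, with Prdm12 (7.63% to 25.9%) among those that rose. Of all 4269 start windows tested at E6.5, 274 were higher (6.42%) and 62 lower (1.45%), the shares beside which the E6.5 counts of the lists below stand.

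Hox genes, which pattern the body axis, had 16 of 24 windows higher in ExE at E7.5 and 0 lower, with a median difference of 3.35 points. Hoxb1 was at 4.58%, 10.7%, 3.70% and 5.99% in the epiblast and at 19.9%, 29.6%, 20.1% and 33.2% in ExE (adjusted p = 4.81e-06, limma). The windows of Hoxa6, Hoxc8 and Hoxc4 rose to ExE means of 13.5%, 12.5% and 14.9%, from epiblast means of 2.21%, 1.70% and 4.49%. At E6.5, 5 of 12 Hox windows were higher, Hoxd11 with the largest difference (3.31% to 16.4%).

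Among 95 windows of signalling ligands, receptors and antagonists, 24 were higher and 1 lower at E7.5, with a median difference of 0.655 points. Fgf14 rose by 13.9 points from 5.19%, with 11.3% and 10.8% in B6/CAST ExE and up to 34.5% in CAST/B6 ExE. Wnt3, a ligand needed for gastrulation, rose from 1.80% to 10.9%, and Dkk2, a Wnt antagonist, from 4.18% to 12.5%. The window that fell was at Dll3, a divergent Notch ligand, at 24.1%, 24.5%, 19.3% and 26.7% in the epiblast and 19.0%, 8.57%, 8.91% and 13.0% in ExE. Dll3 also fell at E6.5 (21.1% to 8.05%), where 8 of 42 windows of the list were higher and 1 was lower.

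Genes of the 2 lineages themselves were looked at next. Of 19 windows of pluripotency and epiblast genes 5 were higher in ExE (26.3%), with a median difference of 0.425 points, and of 25 windows of trophoblast genes 3 were higher (12%), with a median difference of 0.307 points, where 10.0% of all start windows were, so that the trophoblast share is near the background. None of either list was lower, where 5.12% of all start windows were. The 5 included both Otx2 windows, at the start of a homeobox gene of the anterior epiblast. The larger (chr14:48665069-48666044) was at 0.342%, 0%, 0.926% and 2.25% in the epiblast and at 15.5%, 24.3%, 10.1% and 20.8% in ExE. Foxd3, a forkhead factor of pluripotent cells, rose from 3.21% to 18.2%. The trophoblast windows that rose were the pair at Ascl2, a basic helix-loop-helix factor of the ectoplacental cone (5.67% to 17.4% and 4.10% to 8.39%), and that of Esrrb, a nuclear receptor that both lists hold (1.88% to 7.39%). At E6.5, 1 of 10 pluripotency windows, at Otx2, was higher (3.93% to 20.9%), and 0 of 8 trophoblast windows were called.

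No housekeeping or germline promoter window was called higher in ExE, where 10.0% of all start windows were at E7.5. With only 19 germline windows at that day, a count of 0 is not far from that share. Of 148 windows of ribosomal, proteasomal, respiratory chain and other housekeeping genes, 0 were higher and 6 lower (4.05%) at E7.5, with a median difference of -0.105 points, and the share that was lower is near the 5.12% of all start windows. Polr2i, an RNA polymerase II subunit, fell from 16.5% ± 1.80 to 10.7% ± 2.10, and Eif3l, a translation initiation factor subunit, from 5.90% ± 1.15 to 1.63% ± 0.810 (SD, n = 4 each). Of 19 windows of germline genes, which are silenced by promoter methylation in somatic cells, 8 had a mean of at least 20%, 0 were higher and 7 were lower (36.8%), with a median difference of -0.768 points. Sohlh2 (chr3:55181729-55182632) was at 87.7%, 88.2%, 86.1% and 74.8% in the epiblast and 65.9%, 57.3%, 64.3% and 54.1% in ExE, a difference of -23.8 ± 3.67 points (SE, adjusted p = 1.73e-05, limma). Adad1, a testis RNA-binding gene, fell from 57.4% to 35.3%, the window at Rad51c, a recombination gene, from 39.1% to 18.5%, and Ddx4, the germ cell RNA helicase, from 54.4% to 35.7%. At E6.5, 3 of 13 germline windows fell, among them Dazl, a germ cell RNA-binding gene (79.4% to 51.4%), and 0 of 62 housekeeping windows were called.

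**Figure D3:**
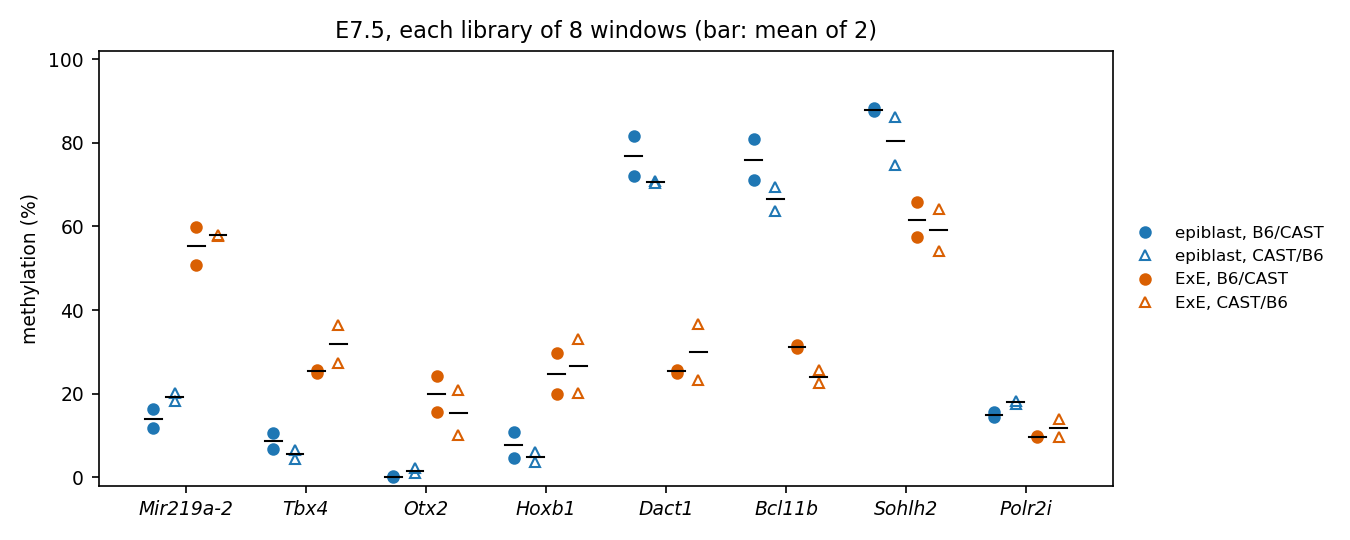
Methylation (%) of 8 windows in each of the 8 E7.5 libraries; colour marks tissue, symbol marks cross and bars are means of 2 libraries. ExE lies above the epiblast at Mir219a-2, Tbx4, Otx2 and Hoxb1 and below it at Dact1, Bcl11b, Sohlh2 and Polr2i.

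The E6.5 tiling has windows with other bounds, and windows at Dact1 and Bcl11b were among its named windows too. The Bcl11b window of E6.5 (chr12:107915564-107916072) does not overlap the one named at E7.5. Higher in ExE were exon windows of AI661453, Proser2, Rps6ka4, Gsc and Ebf1, the start of Rundc3a and an intergenic window 3020 bp from 1700021F13Rik. Gsc, a homeobox gene of the organiser, ranged from 1.72% to 15.8% with a median of 3.99% in the 6 epiblast libraries and was at 41.3%, 29.6%, 32.7% and 41.3% in ExE. Lower in ExE were Sycp1, a synaptonemal complex gene (56.1% to 19.7%), Dact1 (56.1% to 19.9%), Sbk1, Bcl11b (49.1% to 22.2%), Sfi1, Kif19a, a repeat-masked window 19453 bp from Esp6 (80.1% to 50.4%) and Fat1. At Fat1 the ExE libraries were spread widely, with 38.9% in 1 CAST/B6 library and 85.1% to 90.9% in the other 3.

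For the 9648 pairs of windows from the 2 tilings that covered at least 50% of each other, day, pooling and library preparation changed together and cannot be told apart, so no test was made. Over the 5204 pairs tested on both days the epiblast mean was 3.90% at E6.5 and 3.89% at E7.5, and the ExE mean was 4.83% and 4.61%. Of 912 pairs called higher in ExE at E7.5, 830 (91.0%) had a positive difference at E6.5, where 54.2% of all pairs did. Of 247 pairs called lower at E7.5, 200 (81.0%) had a negative difference at E6.5. Over all pairs a negative difference was the less frequent direction at E6.5, since 54.2% were positive. Over all 5204 pairs, 495 were called higher and 62 lower at E6.5, and 912 and 247 at E7.5. Called higher on both days were 416 pairs, 45.6% of those at E7.5 and 84.0% of the 495 at E6.5. Called lower on both days were 44 pairs, 17.8% of those at E7.5 and 71.0% of the 62 at E6.5.

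Maternal loss of Dnmt3a and Dnmt3b, the methyltransferases that establish oocyte methylation, was compared with B6/CAST, the cross of the same direction. No single dense window passed the test in either tissue, where the share of all autosomal windows called was 0 in both directions too (limma). An unadjusted p under 0.05 was found in 431 of 8679 epiblast windows, 123 higher in matDKO/CAST, where 0.232% of all autosomal windows were, and 308 lower, where 31.6% were. In ExE it was found in 791 of 11420 windows, 41 higher, against 0.0707% of all autosomal windows, and 750 lower, against 25.2%. The smallest adjusted p was 0.0878 in the epiblast and 0.144 in ExE. With CAST/B6 added to the wild type, 153 of 7506 windows were lower in the epiblast, where 51% of all autosomal windows were, and 83 were higher, where 0.121% were. In ExE 297 of 8801 were lower, against 32.5% of all autosomal windows, and 33 were higher, against 0.0256%. The matDKO/CAST libraries all lay below those of B6/CAST in 888 epiblast windows, where 49.4% of all autosomal windows did, and all above them in 418, against 0.784%. In ExE the counts were 1962 below, against 47.7%, and 302 above, against 0.589%.

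The size of the difference was described by level, with windows binned by CAST/B6 libraries, which did not enter it. In windows under 5% the epiblast mean was 1.79% in B6/CAST and 1.49% in matDKO/CAST. In the 125 epiblast windows at 50% or more outside the gDMR peaks described below it was 66.2% and 51.3%, with a median difference of -14.3 points. In the 131 such ExE windows it was 60.6% and 47.4%, with a median difference of -13.7 points. Over the rest of the autosomal windows at that level the median difference was -17.8 points in the epiblast, over 175290 windows, and -13.5 points in ExE, over 226961 windows. The repeat-masked windows among the dense windows at 50% or more, 16 for epiblast and 17 for ExE, had median differences of -6.27 and -3.25 points.

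Larger differences were found in windows that overlap gDMRs, taken from H3K4me3 peaks that the study listed as imprinted and annotated with a gDMR. That list was drawn up on other libraries of these crosses, matDKO/CAST included, and is no independent evidence. In the epiblast 10 such windows had a mean of 54.1% ± 4.53 in B6/CAST (SD, n = 3) and of 2.30% and 21.6% in the 2 matDKO/CAST libraries. In ExE 13 windows went from 51.4% to 13.8%. Chosen after their values were seen, Kcnq1 (chr7:143295618-143296400) was at 54.2% and 55.7% in B6/CAST ExE and at 0% in all 3 matDKO/CAST ExE libraries, and its matDKO/CAST difference was -54.9 ± 5.56 points (SE, adjusted p = 0.144, limma). Among the windows lower in every matDKO/CAST epiblast library with an unadjusted p under 0.05, the largest differences were at Peg10 (-65.8 points), Grb10 (-65.4 points), Gnas (-59.4 points) and Airn (-53.8 points), all imprinted loci, followed by Kcnq1 and by Map1s (-51.6 points). In ExE they were at Trappc9, whose intron holds Peg13 (-66.5 points), Kcnq1, Grb10 (-50.9 points), Peg10 (-49.7 points) and Gnas (-48.8 points). The Grb10 value in ExE rests on B6/CAST replicate 1, at 92.9% against 21.6% in replicate 2, and is -15.3 points without it. In all, 277 epiblast windows were lower in this way, where 30.6% of all autosomal windows were, and 6 of them overlapped a gDMR peak of the study. In ExE it was 692, against 24.5%, with 10 in gDMR peaks. The Grb10 windows overlapped none of these peaks and were counted outside them. The opposite direction held 114 epiblast windows, against 0.201% of all autosomal windows, and 38 ExE windows, against 0.0644%, with 0 in gDMR peaks. Its largest differences in the epiblast were at Smim7 (22.1 points, and 13.4 without matDKO/CAST replicate 1) and AI464131 (18.5 points). In ExE they were at Slc25a4, a mitochondrial ADP/ATP carrier (21.3 points, and 13.1 without matDKO/CAST replicate 3), and Ppa2, a pyrophosphatase (19.5 points, and 12.4 without matDKO/CAST replicate 2).

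**Figure D4:**
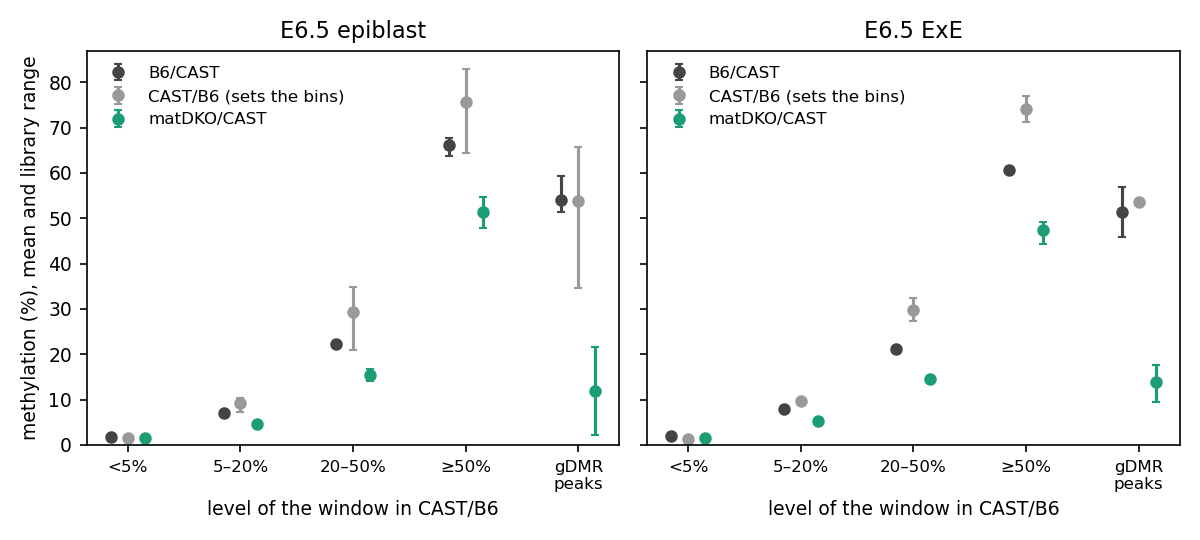
E6.5 methylation (%) of dense windows outside gDMR peaks, binned by their level in CAST/B6, and of windows in gDMR peaks of any level. Points are means over windows and libraries and bars span the libraries; matDKO/CAST falls to 13.8% in gDMR windows of ExE and to 47.4% in other windows at 50% or more.

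Reads assigned to a parental genome gave both alleles in all 4 libraries for 9540 windows in ExE and 5935 in the epiblast at E7.5. The mean of the maternal minus the paternal level over these windows was between -0.0435 and 0.0960 points in the ExE libraries and between 0.103 and 0.158 points in the epiblast libraries. In ExE 7 windows were higher on the maternal allele, against 0.00503% of all autosomal windows, and 1 on the paternal allele, against 0.0022%. In the epiblast 7 were higher on the maternal allele, against 0.00629%, and 0 on the paternal allele, against 0.0021% (limma, 47 windows of either direction at an unadjusted p under 0.05, against 4.87% of all autosomal windows). With any 1 library left out, 0 windows were called in either tissue.

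A difference of at least 50 points with the same sign in all 4 libraries was found in 12 windows in ExE, 9 maternal and 3 paternal, all of them in gDMR peaks, and in 8 windows in the epiblast, 7 maternal and 1 paternal, 7 of them in gDMR peaks. The window at Kcnq1 (chr7:143295640-143296400), in the element from which the antisense Kcnq1ot1 RNA is transcribed, had maternal levels of 87.3%, 93.3%, 91.2% and 100.0% and paternal levels of 0%, 0.813%, 0% and 0% in ExE. Its parental difference was 92.8 points (adjusted p = 0.0270, limma) and its strain difference was -2.85 points. Slc38a4, an amino acid transporter, Peg13, a non-coding RNA gene, Plagl1, a zinc finger gene, Commd1, whose intron holds the imprinted Zrsr1, Impact and Peg3 were the other windows called higher on the maternal allele in ExE, with maternal means of 83.7% to 92.3% and paternal means of 0.681% to 6.89%. The 1 window called in the paternal direction (adjusted p = 0.0291, limma) was at the Gnas locus, where chr2:174283902-174284827 had paternal levels of 98.3%, 88.2%, 68.6% and 92.6% and maternal levels of 4.38%, 4.33%, 0% and 26.8%.

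In the epiblast the windows called were an exon of Gnas (maternal 97.4%, paternal 2.36%), Peg10, a retrotransposon-derived gene (96.2% and 2.04%), Kcnq1 (96.1% and 2.18%), Commd1 (94.9% and 1.08%), Peg3 (91.8% and 2.51%), Peg13 (87.6% and 1.73%) and a start of Gnas outside the gDMR peaks (chr2:174327443-174327987, 92.8% and 1.34%). Allelic values rest on reads that cover a strain difference, and their mean can differ from the level over all reads. Among the windows called in the epiblast, the mean of the alleles minus that level ran from -4.47 points (Peg3) to 31.2 points (Peg10, at 18.0% over all reads), with 17.2 points at the start of Gnas and 13.4 points at Commd1. Among those called in ExE it ran from -2.49 points (Peg13) to 13.3 points (Commd1).

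**Figure D5:**
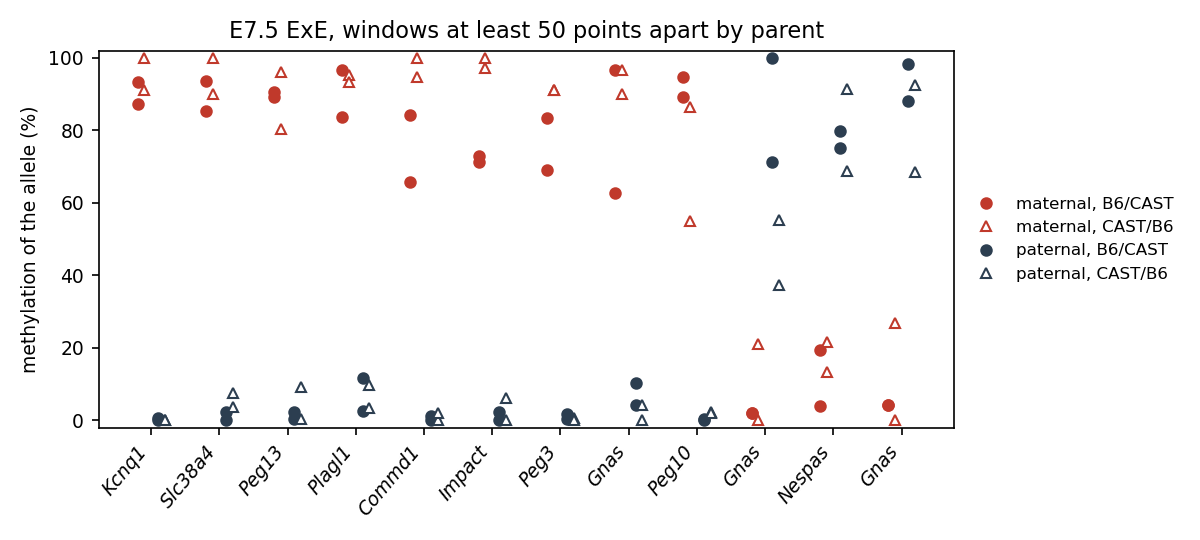
Methylation (%) of the maternal and paternal allele in the 4 E7.5 ExE libraries for the 12 windows with a parental difference of at least 50 points; symbols mark the cross. The 9 windows on the left are methylated on the maternal allele and 3 windows at the Gnas locus on the paternal allele, in both crosses.

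Intermediate levels seldom came with a parental split. Of the 119 ExE windows at 35 to 65% with allelic values, 9 had a parental difference of at least 50 points, 1 had such a difference between strains and 93 (78.2%) had neither difference at 20 points. In the epiblast 5 of 57 were split by parent and 44 had neither. Between the B6 and CAST alleles 0 windows passed the test in either tissue, where 0% of all autosomal windows did, with an unadjusted p under 0.05 in 118 ExE windows, against 8.73% of all autosomal windows, and in 73 epiblast windows, against 6.65% (limma). The widest strain difference in ExE was in an intronic window of Gm37013, within the protocadherin alpha cluster, with B6 levels of 80.3%, 50.4%, 90.4% and 85.5% and CAST levels of 25.2%, 23.9%, 5.88% and 35.3% (adjusted p = 0.539, limma).

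Few dense windows passed the test between reciprocal crosses, though at E7.5 the CAST/B6 libraries had the higher mean over dense windows in each tissue. At E6.5, 0 of 9653 epiblast windows and 0 of 10339 ExE windows passed the test, where 0% of all autosomal windows did (limma). An unadjusted p under 0.05 was found in 373 epiblast windows, against 18.2% of all autosomal windows, and in 613 ExE windows, against 23.8%. Over all autosomal windows the median difference of CAST/B6 minus B6/CAST was 8.36 points in the epiblast and 11.6 points in ExE, and over dense windows it was -0.00553 and -0.242 points. At E7.5 this difference had a mean of 0.373 and a median of 0.237 points over dense windows, against a median of 0.879 points over all autosomal windows. An unadjusted p under 0.05 (limma) was found in 807 dense windows higher in CAST/B6 and 270 lower, against 20023 and 6230 of 383556 autosomal windows. After adjustment, 5 windows of 16601 were higher in CAST/B6, against 0.00548% of all autosomal windows, at Lgr6, Mettl5, Ncmap, Sh2d3c and Pitx1, and 1 was lower, at Lhx5, against 0.00156%. The count was 0 without the variance trend, 1 on a logit scale and between 2 and 13 with 1 library left out. Mettl5, a ribosomal RNA methyltransferase gene (chr2:69885445-69886312), was at 3.43%, 6.04%, 3.63% and 4.50% in the B6/CAST libraries and at 33.9%, 18.0%, 35.4% and 16.0% in CAST/B6, with the epiblast pair given before the ExE pair. In ExE of CAST/B6 its maternal CAST allele was at 91.4% and 52.8%, and the other allelic values of the ExE libraries did not exceed 7.58%. Lgr6, an R-spondin receptor, was at 56.7%, 49.6%, 46.3% and 47.0% in CAST/B6 and at 34.4%, 28.7%, 26.5% and 20.9% in B6/CAST.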

How the data were processed

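The deposited tables hold the percent methylation of each window of 100 CpGs in each library, which the authors made by trimming reads with Trim Galore (0.4.4 for E6.5 in the submitters' notes), aligning them with Bismark (0.20.0 for E6.5) to GRCm38 with strain differences masked and, for E7.5, splitting them by parental genome. How windows were placed, and which coverage minimum was used, is not given in the sources used here. E6.5 and E7.5 were tabulated separately, and comparisons were made within a table. Windows were named by annotated transcript start (GENCODE), then exon or intron, then nearest start. Each comparison was fitted in limma 3.58.1 (R 4.3.3) on percent values, with eBayes trend for levels, cross as a term for tissue and tissue as a term for cross, over all autosomal windows with a value in every library compared, and p-values were adjusted by Benjamini-Hochberg over all of them. Alleles were compared as maternal minus paternal within a library, with parent and strain separated by the crosses. The fit was tested on simulated data. Named were up to 8 windows per direction with the largest called, non-overlapping differences, 1 per 50 kb, the 8 most, 3 least methylated and 5 shortest windows, gDMR windows and up to 4 windows per gene list. The members and gene lists were chosen with earlier results of these data known. One E6.5 B6/CAST epiblast column carries a number that no label has, and was used as a replicate without a number. Replicate files shared at most 2.75% identical values, so no library was counted as a repeat. Sex chromosomes were left out. One gene that the rule names is not reported here, though its windows stay in the counts.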

Additional observations from a re-analysis of the deposited data

Results flagged for a closer look

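The tissue difference was itself different between crosses in 1 dense window at E7.5, by the interaction of tissue and cross (limma, adjusted p = 0.0125 over all autosomal windows). The window lies at the start of Nos1, which encodes a nitric oxide synthase (chr5:117841849-117842536). It was at 6.26% and 8.36% in epiblast and 10.6% and 12.1% in ExE of B6/CAST, and at 6.56% and 3.75% in epiblast and 34.0% and 36.7% in ExE of CAST/B6. ExE minus epiblast was therefore 4.05 points in B6/CAST and 30.2 points in CAST/B6, an interaction of 26.1 ± 2.86 points (SE). In ExE of CAST/B6 the maternal CAST allele was at 46.1% and 42.6% and the paternal B6 allele at 13.8% and 13.8%, and in B6/CAST the 4 allelic values of ExE were between 5.0% and 14.3%. At an unadjusted p under 0.05 the interaction was found in 727 of 16601 dense windows at E7.5 (4.38%), near the 4.41% of all autosomal windows. At E6.5, 0 of 7570 dense windows passed the test and 297 had an unadjusted p under 0.05 (3.92%), against 6.24% of all autosomal windows.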

How the results depend on the processing

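Apart from left-out libraries, the values that answer a comparison stayed within the spread between replicates, or for a count within 1.5 times, in 99 cases and moved in 38. In 7 of the 99 a mean difference near 0 that was not called (cross in E6.5 epiblast, parent in ExE, strain in both tissues) changed sign. Without the variance trend 324 windows were called between tissues at E6.5 in place of 858, and 1587 at E7.5 in place of 3590. With every second window, which left 3801 and 8325 to test, the counts were 430 and 1792, within CAST/B6 at E6.5 it was 403, and with a difference of at least 5 points at E7.5 it was 1758. With both wild-type crosses 236 epiblast and 330 ExE windows were called for matDKO/CAST in place of 0 and 0. The cross at E7.5 gave 0 calls without the trend and 1 on a logit scale in place of 6, and the parental test in ExE gave 19 on a logit scale in place of 8. At thresholds of 30% and 50%, 187 and 112 E6.5 windows were methylated in place of 284, and at 50% 556 E7.5 windows in place of 899. Apart from the smaller number tested, the cause of these changes was not tested. A coverage minimum could not be tried, since the tables hold no coverage.

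The labels do not say that equal replicate numbers are 1 embryo or litter. At E7.5 the deviations of same-numbered libraries of the 2 tissues correlated at 0.0486 and 0.0506 in the crosses over all windows and at 0.110 and 0.117 over dense windows, and at E6.5 at -0.0721 to 0.0624 over dense windows, so a pairing at E7.5 is unsettled. With the replicate block, 461 windows were called at E6.5, against 345.0 in the same libraries without the block, a comparison chosen after seeing the data, and 3648 at E7.5, against 3590.

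As a median over windows, the tissue difference was 0.129 points at E6.5 in place of 0.894 and 0.0897 points at E7.5 in place of 0.242, and at E7.5 it was -0.105 for windows under 1500 bp and -0.108 with 1 window per 10 kb. The matDKO/CAST difference was -0.892 points in the epiblast, and -0.450 as a median, -1.17 weighted by length, -0.601 under 800 bp and -2.07 under 1500 bp. In ExE it was -1.11 points, and -0.404, -1.42, -0.757 and -2.16 under the same settings and -0.970 with 1 window per 10 kb. The cross difference under 1500 bp was 0.477 in E6.5 epiblast and 0.726 in E6.5 ExE, and as a median -0.242 in E6.5 ExE and 0.237 at E7.5. The parental difference in the epiblast was 0.0 as a median, 0.164 weighted by length, 0.0870 under 1500 bp and 0.172 with at least 1 value per group. The strain difference in ExE was 0.0981 under 1500 bp.

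With 1 library left out, the tissue calls ranged from 687 to 910 at E6.5 (76 to 150 lower in ExE) and from 3201 to 3490 at E7.5, matDKO/CAST epiblast calls from 0 to 1 and cross calls at E7.5 from 2 to 13. The parental calls were 0 in both tissues throughout, and the parental mean in the epiblast ranged from 0.103 to 0.194 points.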
